A study of Mus musculus and Homo sapiens with 4 samples.

Results

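A set of 10 genes of the regulator of G-protein signalling family, RGS2, RGS3, RGS4, RGS8, RGS10, RGS11, RGS12, RGS14, RGS16 and RGS19, was followed in mouse LM8 osteosarcoma cells and human A375M melanoma cells after stable knock-down of Merm1 (Wbscr22, now BUD23), a gene whose product methylates 18S ribosomal RNA. All probe sets whose platform annotation named 1 of these 10 genes were taken, 23 of 45101 on the mouse array and 32 of 54675 on the human array. The 10 genes stood among 18193 named genes on the mouse array and 19775 on the human array. The genes were chosen from the measured differences between the knock-down and control arrays, so every difference below is a description and carries no test.

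Expression was measured as log2 RMA values on 4 arrays, 1 for each stably infected line. The groups were LM8 carrying a pSIREN-RetroQ retrovirus with a hairpin against mouse Merm1, LM8 carrying the control pSIREN-RetroQ virus, A375M carrying the virus with a hairpin against human Merm1, and A375M carrying the control virus. Control cells of each line thus also carried a retrovirus, and the lines of a pair shared their serum-containing medium, MEM for LM8 and DMEM for A375M. Each species was represented by 1 hairpin construct and 1 established line per group, and the sources used here do not give whether a line was a clone or a pool. Differences are given as knock-down minus control in log2 units. Since each group was measured on 1 array, none of them could be checked against replicates and no p-values are given.

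The target gene was lower in both arrays labelled knock-down. Bud23 read 8.48 in LM8 knock-down cells and 10.61 in LM8 control cells, and BUD23 read 8.38 in A375M knock-down cells and 10.70 in A375M control cells. A second human BUD23 probe set differed by only -0.12. As a technical gauge, the median SD among the differences of probe sets for the same gene was 0.12 for LM8 and 0.071 for A375M, a figure that holds no variation between cultures. The signal ratio between the ends of the Gapdh and Actb transcripts, a sign of RNA integrity, was close in the arrays of a pair, with 3-prime minus 5-prime log2 differences of -0.18 in LM8 knock-down and -0.18 in LM8 control cells for Gapdh and of 0.995 in A375M knock-down and 0.91 in A375M control cells for ACTB. The median difference of transcripts added as labelling controls was 0.14 for LM8 and 0.026 for A375M. In LM8, 8 of 8 measured osteoblast markers, from 12 listed, lay above the array median in both arrays. In A375M 9 of 11 melanocyte markers did, while GPR143 and TRPM1 lay below it, and MLANA, at 5.19 in knock-down and 4.84 in control cells, lay close to it. These counts say little about cell type. In A375M 7 of 10 neuron markers also lay above the median in both arrays. Of all named genes, 11646 of 18193 in LM8 and 13244 of 19775 in A375M lay above it in at least 1 array.

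RGS proteins end signalling by G protein-coupled receptors. A receptor loads the G protein alpha subunit with GTP, and the RGS domain speeds the hydrolysis of that GTP, so that the alpha subunit goes back to its inactive form. The R4 subfamily (RGS2, RGS3, RGS4, RGS8 and RGS16 here) consists mostly of small proteins with little beyond the RGS domain. RGS11 belongs to the R7 subfamily, whose members need the beta subunit GNB5 as a partner, and RGS10, RGS12 and RGS14 to the R12 subfamily, in which RGS12 and RGS14 also carry a GoLoco motif that binds inactive alpha subunits. RGS19, also called GAIP, is of the RZ subfamily. Transcripts of several R4 genes are short-lived and respond to receptor signals, cyclic AMP and growth factors.

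In LM8 the clearest differences were those of a pair of R4 genes, Rgs8 and Rgs16, which lie side by side on mouse chromosome 1, and both were lower in knock-down cells. The start regions of these genes and of Rgs2, the R4 gene that was higher, are shown because the transcripts differed in opposite directions. Whether the motifs have a part in that was not tested. The windows run from 250 bases before to 50 after the annotated start, are taken from RefSeq (GRCm38.p6) and are written 5′ to 3′ on the gene's strand. Capitals mark matches, on either strand, to the cyclic AMP response element TGACGTCA, to its core TGACG, which is contained in it, to the AP-1 motif TGANTCA, to the EGR motif GCGNGGGCG and to the TATA motif TATAAA. For Rgs8, which has 3 annotated starts, the one farthest upstream is shown.
Rgs8 (chr1:153652787-153653086, plus strand): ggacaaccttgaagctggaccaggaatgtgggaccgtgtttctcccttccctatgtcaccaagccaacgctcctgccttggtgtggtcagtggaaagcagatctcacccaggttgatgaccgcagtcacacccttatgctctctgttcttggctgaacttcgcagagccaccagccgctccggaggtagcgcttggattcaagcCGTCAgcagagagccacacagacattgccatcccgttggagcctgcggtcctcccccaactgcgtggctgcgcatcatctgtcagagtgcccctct
Rgs16 (chr1:153740103-153740402, plus strand): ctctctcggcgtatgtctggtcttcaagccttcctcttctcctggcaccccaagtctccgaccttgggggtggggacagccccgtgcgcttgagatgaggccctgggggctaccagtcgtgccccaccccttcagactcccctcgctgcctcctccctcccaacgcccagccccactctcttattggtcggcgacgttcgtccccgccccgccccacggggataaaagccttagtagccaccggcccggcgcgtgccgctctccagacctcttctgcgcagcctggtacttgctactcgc
Rgs2 (chr1:144004100-144004399, minus strand): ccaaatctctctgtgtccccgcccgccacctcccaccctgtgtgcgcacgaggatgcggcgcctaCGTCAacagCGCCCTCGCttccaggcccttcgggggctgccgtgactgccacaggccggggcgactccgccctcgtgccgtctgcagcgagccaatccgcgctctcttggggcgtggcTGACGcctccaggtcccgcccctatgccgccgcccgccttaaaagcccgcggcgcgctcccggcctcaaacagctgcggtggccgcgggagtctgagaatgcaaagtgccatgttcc

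The Rgs8 window held 1 match to TGACG, at position -46 relative to the start, and the windows of its other starts held none of the motifs. The Rgs16 window held no match, which says only that these letters are not in this window. The Rgs2 window held TGACG on both strands, at positions -67 and -185, and 1 EGR match. Windows were used for 8 of the 10 genes, 14 windows in all. Rgs11 and Rgs14 had none among them. Any window of the 10 genes on 1 excluded chromosome was left out, while the shares over all windows include that chromosome. TGACG occurred in 4 of these 14 windows, those of Rgs2, Rgs4, Rgs8 and Rgs12, and in 20.8% of all 32851 mouse windows. The EGR motif occurred in 2 of the 14, those of Rgs2 and Rgs19, and in 5.55% of all windows. AP-1 occurred in 1 of the 14, that of Rgs12, and in 7.81% of all windows, TATAAA in 3 of the 14, those of Rgs3 and Rgs4, and in 13.6%, and the whole TGACGTCA element in 0 of the 14 and in 1.79%.

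Rgs8, known in mammals mainly from the brain and from cerebellar Purkinje cells, read 5.50 in LM8 knock-down cells and 7.15 in LM8 control cells on its single probe set (Entrez Gene 67792). The difference of -1.65 left 31.9% of the control level, a 3.13-fold lower signal, and was the fifth lowest of 45037 non-control mouse probe sets. The knock-down value was barely higher than that array's median, 5.28, and the size of the difference is imprecise. Of 10 neuronal markers, whose mean level was 4.49 in knock-down and 4.48 in control cells, 2 lay above the median in both arrays. Of these, Tubb3 was lower, at 6.64 in knock-down and 7.35 in control cells, and Rbfox3 was higher, at 6.31 in knock-down and 6.04 in control cells. Snap25, Nefl and the Purkinje markers Calb1 and Pcp2 lay below the median. Fewer cells of a type and less RNA per cell cannot be told apart in such bulk samples, and the part of this in the Rgs8 difference was not tested.

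Rgs16 gave the same direction on each of its 3 probe sets. Its brightest probe set (Entrez Gene 19734) read 9.19 in knock-down cells and 10.29 in control cells, a difference of -1.10. The second read 9.10 in knock-down cells and 10.35 in control cells, a difference of -1.25. The last read 6.68 in knock-down cells and 7.90 in control cells, a difference of -1.22. All of these values lay above the array median, and between 41.9% and 46.5% of the control signal was left. Rgs16 acts on alpha subunits of the Gi and Gq classes, and its protein, like that of Rgs4, is removed through the N-degron pathway.

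The genes flanking this pair were looked up after the values were seen, in RefSeq's gene order for GRCm38.p6. Npl, which encodes a sialic acid lyase and lies next to Rgs8 on the other side from Rgs16, read 4.53 in knock-down cells and 5.27 in control cells. Its difference of -0.74 had the same direction, but both values lay below the array medians, so the gene did not pass the filter used here. The next gene with a signal on that side, the RNA helicase gene Dhx9, read 11.98 in knock-down cells and 11.95 in control cells and differed by 0.030. Beyond Rgs16, the nearest gene analysed here was Teddm2, which was below the median in both arrays and differed by 0.24.

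**Figure D1:**
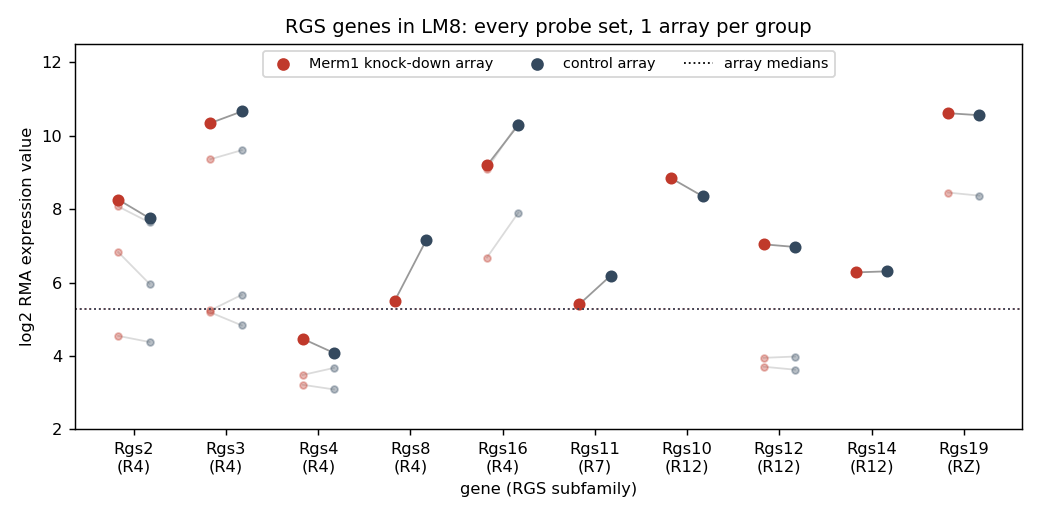
Log2 RMA values (y axis) of all 23 probe sets of the 10 RGS genes (x axis, by subfamily) in the LM8 knock-down array (red, left of each pair) and the control array (dark, right), 1 array each. Large points are the brightest probe set of a gene and faint points the others, and dotted lines are the array medians. Rgs8, Rgs16 and Rgs11 slope up towards the control array, Rgs2 and Rgs10 slope down, and all Rgs4 probe sets lie below the median.

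Rgs2 was higher in LM8 knock-down cells. This R4 member prefers alpha subunits of the Gq class, is induced by cyclic AMP, and has been reported to bind a subunit of the translation factor eIF2B. Its brightest probe set (Entrez Gene 19735) read 8.26 in knock-down cells and 7.75 in control cells, a difference of 0.51. The next read 8.07 in knock-down cells and 7.64 in control cells, a difference of 0.43, and another, marked as shared between transcripts, read 6.83 in knock-down cells and 5.96 in control cells, a difference of 0.87. The dimmest lay below the median and differed by 0.17. All 4 probe sets were thus higher in the knock-down array, by less than 1.5-fold on those not marked as shared.

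The other R4 genes differed less or were dim in LM8. Rgs3, whose longer forms can also bind beta and gamma subunits, read 10.34 in knock-down cells and 10.66 in control cells, a difference of -0.32. Its other probe sets differed by -0.25 and -0.42 and, at a level below the median, by 0.35. Rgs4, best known from neurons and heart, lay below the median on all 3 probe sets. The brightest read 4.47 in knock-down cells and 4.08 in control cells, and the differences ran from -0.19 to 0.39, which at this signal shows no direction.

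Outside the R4 genes, Rgs11 was lower and Rgs10 higher in LM8 knock-down cells. Rgs11, an R7 gene best known from retinal bipolar cells, read 5.40 in knock-down cells and 6.18 in control cells on its single probe set, a difference of -0.78 or 1.72-fold lower. Its knock-down value lay close to the array median of 5.28. Gnb5, the obligate partner of R7 proteins, read 7.55 in knock-down cells and 7.63 in control cells. Rgs10, an R12 gene studied mainly in microglia and lymphocytes and in bone cells, read 8.84 in knock-down cells and 8.35 in control cells on its single probe set, a difference of 0.49. Of 10 leukocyte markers measured 3 lay above the median in LM8 knock-down cells and 4 in LM8 control cells, and the 4 that passed the filter differed by -0.28 to -0.11; their part in the Rgs10 value was not tested.

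The remaining genes differed by less than the spread between probe sets of a gene in LM8. Rgs12, which also binds Ras-family proteins, read 7.04 in knock-down cells and 6.97 in control cells, and its dim probe sets differed by -0.036 and 0.081. Rgs14, another scaffold for Ras-family proteins, read 6.28 in knock-down cells and 6.30 in control cells. Rgs19 read 10.61 in knock-down cells and 10.56 in control cells, and its second probe set differed by 0.085. Gipc1, which encodes a scaffold that binds the end of Rgs19, read 8.23 in knock-down cells and 8.31 in control cells.

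A gene was kept for counts when its brightest probe set exceeded the array median, taken over non-control probe sets, on 1 or both arrays of the line, which held for 9 of the 10 genes in LM8, Rgs4 being the exception. Of these 9, 5 were lower and 4 higher in the knock-down array. Of all 11646 kept LM8 genes 46.0% were lower and 53.8% higher. The 9 RGS genes had a median difference of -0.029, beside 0.015 over all kept genes. At 1.5-fold 3 were lower (Rgs8, Rgs16 and Rgs11), where 1.31% of all kept genes were, and 0 were higher, where 1.16% were. At 2-fold 2 were lower (Rgs8 and Rgs16), where 0.318% of kept genes were, and 0 were higher, where 0.155% were. Since the genes were chosen from these differences, nothing is read from these counts.

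**Figure D2:**
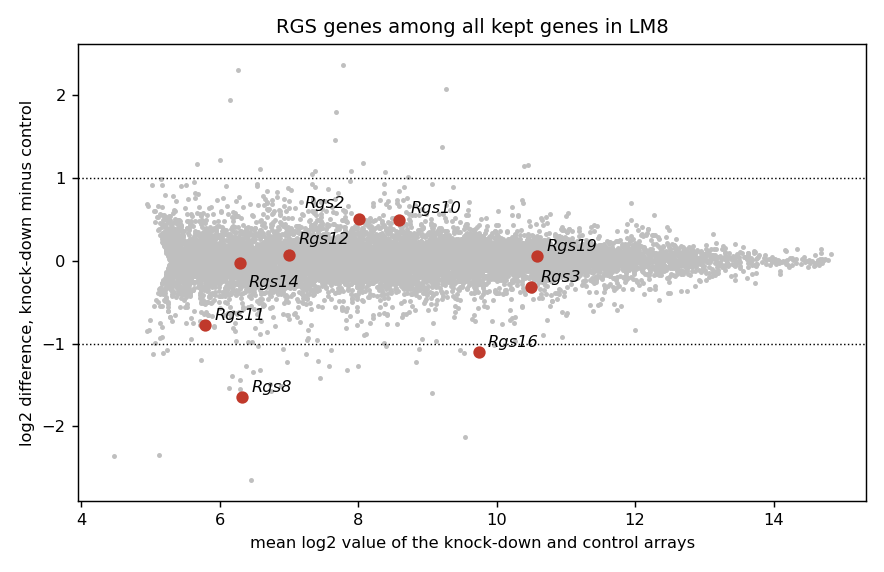
Log2 difference, knock-down minus control (y axis), against the mean log2 value of both arrays (x axis) for all 11646 kept genes in LM8 (grey) and the 9 kept RGS genes (red, named). Dotted lines mark 2-fold. Rgs8 and Rgs16 lie below the lower line at different levels, Rgs11 lies above it at -0.78, and Rgs2 and Rgs10 sit near the upper edge of the cloud.

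For Rgs8, the kept genes whose LM8 values came closest were named by their Euclidean distance over the 2 arrays. Fetub, a fetuin gene, read 5.52 in knock-down cells and 7.07 in control cells (distance 0.081). Ramp1, which encodes a receptor activity-modifying protein that builds the receptor for calcitonin gene-related peptide, read 5.58 in knock-down cells and 7.01 in control cells (distance 0.16). Tmcc3 read 5.75 in knock-down cells and 7.02 in control cells (distance 0.28).

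In A375M none of the 10 genes differed by as much as 1.5-fold on any probe set, in either direction. RGS16 read 7.34 in knock-down cells and 7.32 in control cells, a difference of 0.023. Its second probe set read 6.91 in knock-down cells and 6.72 in control cells, a difference of 0.19, and a dim one differed by 0.24. RGS8 lay near the array medians of 4.67 in knock-down and 4.64 in control cells, with 4.73 in knock-down cells and 4.66 in control cells on the brighter probe set and 4.23 in both arrays on the other, so its response could not be measured there. A probe set annotated to both RGS8 and another gene was left out.

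RGS2 had the largest difference among the brightest probe sets in A375M. It read 9.71 in knock-down cells and 9.48 in control cells on its only probe set, a difference of 0.23 or 1.17-fold higher. The median spread between probe sets of a gene was 0.071 in A375M. That gauge counts probe sets with identical values in both arrays and may understate the noise, so it cannot judge this difference. The direction of RGS2 was that of LM8, where Rgs2 differed by 0.51. RGS3 read 7.35 in knock-down cells and 7.38 in control cells, with a dim probe set at -0.43 and another identical in both arrays. RGS4 read 5.12 in knock-down cells and 5.15 in control cells, and its second probe set read 5.01 in both.

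The other subfamilies were nearly level in A375M. RGS10 read 9.08 in knock-down cells and 9.03 in control cells on its brightest probe set, and its other probe sets were identical in both arrays. RGS12 read 5.38 in knock-down cells and 5.35 in control cells, and 7 of its 10 probe sets were identical. RGS14 was identical on all 3 probe sets, the brightest at 6.61. RGS19 read 8.31 in knock-down cells and 8.40 in control cells, a difference of -0.088. RGS11 lay below the median on all 3 probe sets, the brightest at 4.66 in knock-down cells and 4.57 in control cells, and was not kept. Another RGS11 probe set read 3.64 in knock-down cells and 3.97 in control cells, a difference of -0.33, and the last was identical in both arrays.

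Of the 9 kept genes in A375M 5 were higher, 3 lower and 1 identical. Of all 13244 kept genes 29.0% were higher, 40.3% lower and 4075 identical. The 9 RGS genes had a median difference of 0.023, beside 0 over all kept genes. At 1.5-fold 0 were lower, where 0.37% of kept genes were, and 0 were higher, where 0.378% were. On these arrays 16 of the 32 RGS probe sets, or 50%, carried a value that was identical between knock-down and control cells, beside 45.4% of all non-control probe sets. In LM8 it was 0 of 23, beside 0.706%. The sources used here do not give the step behind the identical values, so a level pair in A375M cannot be read as evidence that the transcript was unchanged.

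**Figure D3:**
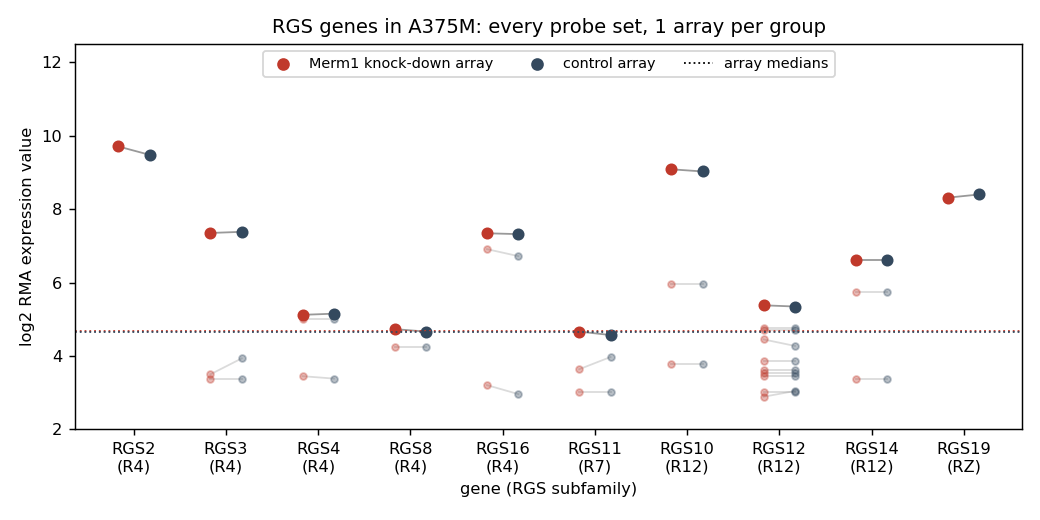
Log2 RMA values (y axis) of all 32 probe sets of the 10 RGS genes (x axis, by subfamily) in the A375M knock-down array (red, left of each pair) and the control array (dark, right), 1 array each. Large points are the brightest probe set of a gene, faint points the others, and dotted lines the array medians. Most pairs are level, and RGS2 is higher by 0.23 in the knock-down array.

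**Figure D4:**
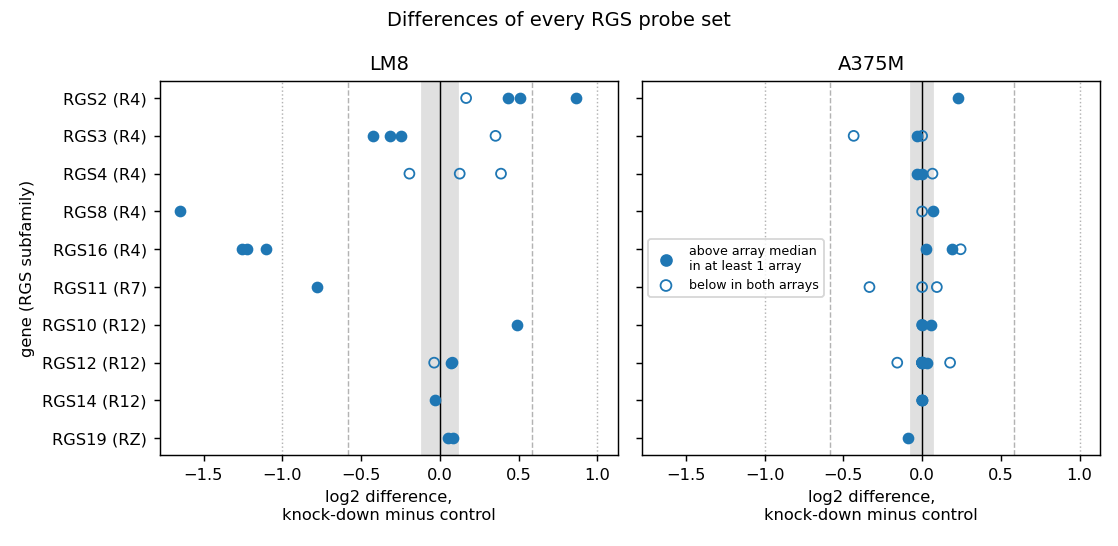
Log2 difference, knock-down minus control (x axis), of every probe set of the 10 genes (y axis, by subfamily) in LM8 (left) and A375M (right). Filled points lay above the array median in at least 1 array, open points in neither, the grey band is the median SD between probe sets of a gene, dashed lines mark 1.5-fold and dotted lines 2-fold. All 3 RGS16 probe sets lie beyond 2-fold lower in LM8 and to the right of 0 in A375M.

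Other RGS genes were mostly dim in both lines. Of 9 measured in LM8 2 were kept. Rgs13, a neighbour of Rgs2 on chromosome 1, read 5.59 in knock-down cells and 5.94 in control cells, and Rgs9 read 7.14 in knock-down cells and 7.04 in control cells. Of 10 measured in A375M 3 were kept. RGS5, a pericyte-associated R4 gene, read 5.97 in knock-down cells and 5.56 in control cells on the brightest of 6 probe sets, but its other kept probe set differed by 0.064, and the difference was -0.0060 without probe sets marked as shared. RGS17 read 8.08 in knock-down cells and 8.28 in control cells, and RGS20 read 6.99 in knock-down cells and 7.25 in control cells. Both are RZ genes. RGS17 was lower by 0.20 on its only probe set. RGS20 was lower by 0.25 on the brighter of 2 probe sets, but the other was identical in both arrays. As the mean of its probe sets RGS20 differed by -0.13.

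The alpha subunits on which RGS proteins act mostly differed by less than 1.5-fold. In LM8 9 of 15 were kept, 7 higher and 2 lower, with a median of 0.11, beside 53.8% higher among all kept genes. The transducin gene Gnat2 was past 1.5-fold, as 1.16% of all kept genes were on the higher side, at 6.31 in knock-down and 5.71 in control cells, but differed by only 0.40 with 32 added to the linear value. Gna12 read 9.20 in knock-down cells and 8.72 in control cells. Gnaq, the alpha subunit that Rgs2 acts on, read 9.65 in knock-down cells and 9.30 in control cells on its brightest probe set. The Gnaq difference was 0.235 as the mean of its 7 probe sets, and its kept probe sets ran from -0.0053 to 0.40. In A375M 11 of 15 were kept, with a median of -0.016. GNAL, the olfactory Gs-class gene, was past 1.5-fold at 6.10 in knock-down and 5.45 in control cells, as 0.378% of all kept A375M genes were on the higher side. It differed by only 0.33 as the mean of its 4 probe sets and by 0.41 with 32 added to the linear value. GNAI2, of the Gi class, read 8.20 in knock-down cells and 8.37 in control cells.

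Among beta and gamma subunits 13 were kept in LM8 with a median of 0.052 and 14 in A375M with a median of 0. Gngt2 read 6.77 in knock-down and 7.41 in control LM8 cells and was the only one past 1.5-fold, as 1.31% of all kept LM8 genes were on the lower side. It missed that mark at -0.51 with 32 added to the linear value. GNB5, the partner of R7 proteins, read 7.86 in knock-down and 8.30 in control A375M cells, a difference of -0.44, which shrank to -0.12 as the mean of its 5 probe sets. The 12 kept LM8 genes for other proteins with an RGS-like domain were centred on 0.064 and the 14 kept A375M genes on 0 (medians). Grk5, a kinase that marks active receptors, read 8.91 in knock-down and 8.26 in control LM8 cells, with its second probe set at 0.33. Axin2, a scaffold of Wnt signalling, read 8.36 in knock-down and 7.97 in control LM8 cells, but differed by only 0.19 as the mean of its probe sets.

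For 8 kept partners and regulators of the cycle the LM8 median was -0.073, and for 9 in A375M it was 0, with 0 past 1.5-fold in either line. Over all kept genes 1.31% were lower and 1.16% higher in LM8, and 0.37% were lower and 0.378% higher in A375M. GPSM2, which carries GoLoco motifs, read 7.35 in knock-down and 7.61 in control A375M cells, but differed by only -0.076 as the mean of its probe sets. RASD1, a Ras-like activator of Gi, read 6.11 in knock-down and 5.80 in control A375M cells. The genes listed for the N-degron pathway, of which 7 were kept in each line, were centred on -0.0022 in LM8 and on 0 in A375M (medians). Not every enzyme in this list acts on Rgs4 and Rgs16 proteins. Ate1, the arginyltransferase of that pathway, read 8.16 in knock-down and 7.94 in control LM8 cells, but differed by only 0.083 as the mean of its probe sets.

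Upstream of the G proteins, 17 receptor and receptor-partner genes were kept in LM8 with a median of 0.020, and 26 in A375M with a median of 0. Ramp1 differed by -1.43 in LM8, or by -0.54 as the mean of its 3 probe sets, and RAMP1 by -0.57 in A375M, where it read 7.01 in knock-down and 7.58 in control cells. Ramp2, which pairs with the same receptor to bind adrenomedullin, read 7.79 in knock-down and 6.86 in control LM8 cells. Downstream, adenylyl cyclases and phospholipase C beta genes were higher in 8 of 10 cases in LM8, where their median was 0.12, beside 53.8% and 0.015 over all kept LM8 genes. They had 11 kept genes centred on 0 in A375M. Adcy4 read 6.10 in knock-down and 5.55 in control LM8 cells, but differed by only 0.35 with 32 added to the linear value. Plcb1 read 9.78 in knock-down and 9.45 in control LM8 cells, although its kept probe sets ran from -0.19 to 0.34.

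Transcripts known to be induced by cyclic AMP and CREB differed in both directions in LM8. Of 13 kept genes 8 were lower and 5 higher, where 46.0% of all kept LM8 genes were lower and 53.8% higher. The median of the 13 was -0.14. At 1.5-fold 2 were lower and 2 higher, where 1.31% of all kept LM8 genes were lower and 1.16% higher. Egr1 read 6.36 in knock-down and 7.59 in control LM8 cells, and Fos 6.81 in knock-down and 7.74 in control LM8 cells. The phosphodiesterase genes Pde4b, at 8.39 in knock-down and 6.93 in control cells, and Pde4d, at 8.12 in knock-down and 7.30 in control cells, had the opposite direction, and their differences were 0.48 and 0.43 as means over all their probe sets. In A375M 14 genes were kept, 8 higher, 1 lower and 5 identical, with a median of 0.092, where 29.0% of all kept A375M genes were higher, 40.3% lower and 4075 of 13244 identical. FOS read 7.74 in knock-down and 7.31 in control cells.

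**Figure D5:**
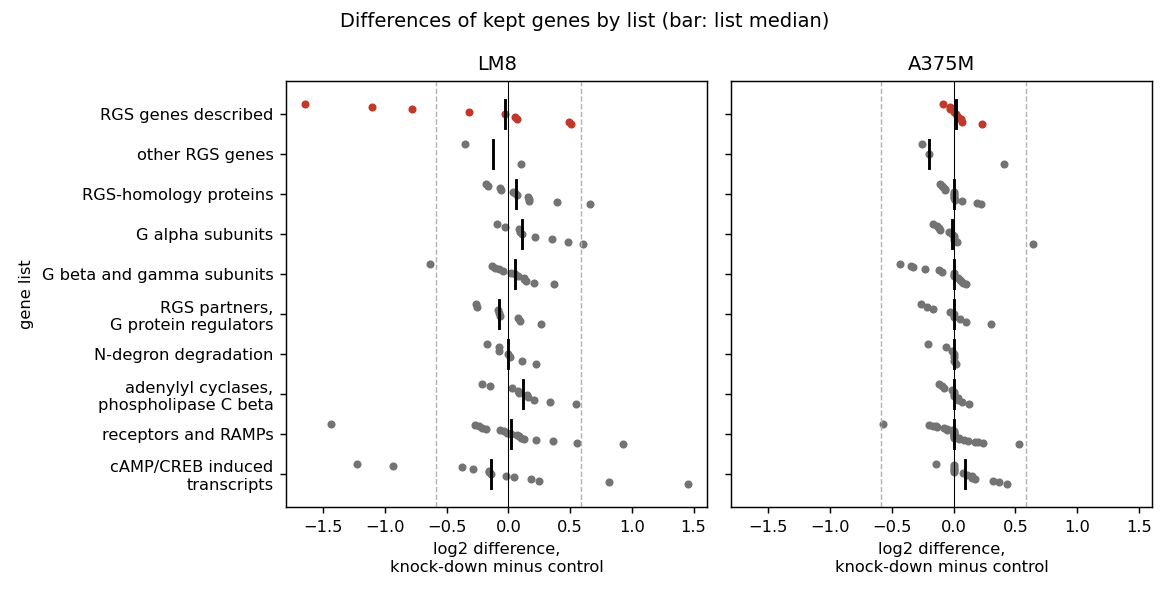
Log2 difference, knock-down minus control (x axis), of the kept genes of each list (y axis) in LM8 (left) and A375M (right). Each point is 1 gene, red for the RGS genes described here and grey for the other lists, black bars are list medians, and dashed lines mark 1.5-fold. The RGS genes in LM8 spread from -1.65 to 0.51, and in A375M from -0.088 to 0.23.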

How the data were processed

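Total RNA of 4 stably infected lines was hybridised as biotinylated cRNA to Affymetrix arrays, 1 array per group, per the labels' protocols. The authors deposited 1 log2 value for each probe set, and the submitters' processing notes name RMA as the method. RMA as a rule equalises the distributions of arrays, so a shift of all genes might not be seen. The deposited arrays of a pair were not fully equalised. Medians over non-control probe sets were 5.28 in knock-down and 5.29 in control LM8 cells, and 4.67 in knock-down and 4.64 in control A375M cells. Repeated quantile normalization moved RGS2 in A375M from 0.23 to 0.28. The sources used here do not give the version or software of RMA.

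Groups were taken from sample titles. Probe sets were named by the platform annotation, and those with several symbols were left unnamed. The brightest probe set stood for its gene, which was kept when that value exceeded the median (50th percentile) of non-control probe sets on 1 or both arrays of the line. Log2 differences, knock-down minus control, were computed in Python 3.11.15 with pandas 2.3.3, and counted at 1.5-fold and 2-fold. No p-value was computed, since each group held 1 array, and no fit treating the mouse and the human line as replicates was made. The number of arrays limits the precision.

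The 10 genes and all lists were chosen with earlier results of these data known. The text names all 10 genes, kept RGS genes outside the set, up to 3 genes of each list with the largest differences, those past 1.5-fold, and the 3 genes nearest to Rgs8; genes of other lists are named as partners or markers, and the neighbours of Rgs8 were chosen after values were seen. Counting was tested on simulated data with planted differences well past the threshold and no identical values, which checks the code and not the counts reported here. The alternatives were no filter, a filter at the 70th percentile, centring, repeated quantile normalization, a loess correction (span 0.4), averaging a gene's probe sets, leaving out probe sets named _x_at or _s_at, 32 added to the linear value, and a 2-fold threshold.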

Additional observations from a re-analysis of the deposited data

Results flagged for a closer look

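Of the 8 genes kept in both lines, 3 differed in opposite directions in LM8 and A375M, which was not tested, since each line held 1 array per group. Among all 8981 genes kept in both lines, matched by symbol, 36.1% did so, a share near that of the RGS genes. RGS8 differed by -1.65 in LM8 and by 0.067 in A375M, where it lay near the array median. RGS16 differed by -1.10 in LM8 and by 0.023 in A375M, where the sign turned to -0.0071 with each array centred on its median. RGS19 differed by 0.055 in LM8 and by -0.088 in A375M, of the order of the spread between probe sets of a gene. The lines differ in species, tumour type, hairpin and array design, which cannot be told apart.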

How the results depend on the processing

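Rgs8 and Rgs16 stayed at least 1.5-fold lower in LM8 under all 8 alternatives that give a value for single genes, from -1.65 to -1.17 and from -1.19 to -1.06. Rgs11 did so under 7 and differed by -0.49 with 32 added to the linear value. The count of genes at least 1.5-fold lower in LM8 was 1 in place of 3 with the filter at the 70th percentile, because Rgs8 and Rgs11, with Rgs12 and Rgs14, no longer passed it. It was 2 with 32 added and 2 at the 2-fold threshold. The counts of genes at least 1.5-fold higher in LM8, and in either direction in A375M, were 0 under every alternative run. The median over the kept genes ran from -0.094 to 0.055 in LM8 and kept its sign under 5 of 8 alternatives, and in A375M it ran from -0.0071 to 0.032, so neither shows a direction. Rgs2 and Rgs10 were higher in LM8 under all 8, at 0.45 to 0.52 and 0.45 to 0.50, and RGS2 was higher in A375M under all 8, at 0.20 to 0.28. Some of these alternatives could not change a gene's value, so the counts overstate the support. The filter settings leave every difference as it is. Averaging and leaving out shared probe sets cannot alter Rgs8, Rgs10 and Rgs11 in LM8 or RGS2 in A375M, each with a single unshared probe set. With shared probe sets (_x_at or _s_at) left out RGS10 was at 0 and RGS16 at 0.24 in A375M, RGS19 had no probe set left, and BUD23 itself differed by -0.12 on its remaining, second probe set, in place of -2.32. The small differences of RGS3, RGS4 and RGS16 in A375M and of Rgs14 in LM8 changed sign under 1 alternative each, and that of RGS11 in A375M did so under 2, at -0.080 as the mean of its probe sets and -0.33 without shared probe sets. Low signal limits Rgs4 in LM8 and RGS8 and RGS11 in A375M. No fit over both lines was made, since it would count cells of different species as replicates.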

Other observations

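On the A375M arrays many RGS values recurred exactly elsewhere on the array. Of the 32 RGS probe sets 24 had a value in the knock-down array, and 21 in the control array, that at least 1 other probe set shared to the last digit. In the LM8 arrays this held for 1 of 23 in the knock-down array and 3 of 23 in the control array. The value 3.38143 was held by 662 probe sets in the A375M knock-down array, RGS3 and RGS14 among them, and by 637 in the control array, where RGS3, RGS4 and RGS14 had it. The brighter RGS8 probe set had a value of 4.73 in the A375M knock-down array that no other probe set had, and a value of 4.66 in the control array that 56 probe sets had.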
